A study of Mus musculus with 22 samples.

Results

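A set of 10 genes, Ptprc, Adgre1, Cd53, Cd52, Cd74, Csf1r, C1qa, Cx3cr1, Trem2 and Itgam, was followed as macrophage and microglia genes in mouse striatum and white adipose tissue (WAT). They were chosen by name, with earlier results of these data known, and are 10 of the 57593 distinct gene symbols listed in either count table. Bulk RNA-seq was used to follow thyroid hormone (TH) responses in hypothyroid mice. The comparisons ask which way these genes moved in brain, where they were taken as microglia genes, and in fat, as macrophage genes. In fat, Ptprc, Cd53, Cd52 and Cd74 followed B and T cell genes from library to library, so there they cannot be read as macrophage genes alone.

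All groups were wild-type C57BL/6J mice labelled as male and 8 weeks old. The reference groups were hypothyroid after 2 weeks of propylthiouracil (PTU), a drug that blocks thyroid hormone synthesis, with 2 striatum and 4 WAT libraries. The other groups received TH and were taken after 12 h or 24 h (striatum) or after 6 h or 24 h (WAT), with 4 libraries each. The study's methods describe a single intraperitoneal injection of T3 and T4, and list PTU in the food for WAT but no hypothyroidism for striatum, whereas the striatum labels name PTU.

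Macrophages and microglia depend on the growth factor receptor Csf1r, whose ligands are Csf1 and Il34, and microglia are known for a strong expression of Cx3cr1, the receptor of the neuronal chemokine Cx3cl1. Among the other surface receptors, Trem2 binds lipids and signals through the adaptor Tyrobp, Itgam pairs with Itgb2 into complement receptor 3, and Adgre1 encodes the macrophage antigen F4/80. C1qa, with C1qb and C1qc, forms the C1q recognition unit of the classical complement pathway. Cd74 is the invariant chain that accompanies MHC class II molecules. Ptprc (CD45) is the leukocyte phosphatase, Cd53 a leukocyte tetraspanin and Cd52 a small anchored glycoprotein of lymphocytes and myeloid cells, so these 3 genes and Cd74 are also expressed by B cells or T cells. In bulk tissue, fewer cells of a type and less RNA per cell cannot be told apart.

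On GRCm38, Ptprc spans chr1:138062861-138175708, Cd53 chr3:106759921-106790149, Cd52 chr4:134082448-134095082 and C1qa chr4:136895917-136898803, all on the minus strand, as does Cx3cr1 at chr9:119901616-120069879. Itgam lies at chr7:128062640-128118491, Trem2 at chr17:48346401-48354147, Adgre1 at chr17:57358691-57483527, Cd74 at chr18:60803848-60812652 and Csf1r at chr18:61100598-61132149, on the plus strand. Values are gene totals over annotated exons. Itgam shared 68.7% of its exon bases with the overlapping gene model Gm49368 on the same strand, and the WAT table held a second row named Itgam, which is given apart. Csf1r shared 15.1% of its exon bases with Hmgxb3 and Cd52 shared 14.5% with Crybg2, both on the opposite strand, and use of strand in counting was not given in the sources used here.

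Gene counts summed to between 8056443 and 10163849 per striatum library and between 17298747 and 26963433 per WAT library. Hr, a known TH target, rose after TH in every comparison with PTU, by 2.49 ± 0.21 (SE) on the log2 scale in striatum at 12 h (adjusted p = 0.0026) and by 4.19 ± 0.19 in WAT at 24 h (adjusted p = 2.15e-07, edgeR quasi-likelihood test with Benjamini-Hochberg adjustment). The male label was not met in 6 of 10 striatum libraries, PTU replicate 6, 12 h replicate 1 and all 4 at 24 h, where Y-linked counts summed to 6.84 or less and Xist, which is transcribed from the inactive X chromosome, was 22070 or more. Striatum 24 h replicate 2 also stood apart, with a summed level of 2145 for 7 projection neuron genes against 15122 to 43553 in the other libraries.

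Per kilobase of exon, Cx3cr1 was the highest of the 10 genes in striatum at 22.4 ± 3.34 RPKM (SD over 10 libraries). It was followed by Cd53 at 16.8 ± 3.88, C1qa at 14.8 (10.2 to 17.5) and Csf1r at 11.8 ± 1.86, and Cx3cr1 exceeded Cd53 in every library. The remaining 6 genes were far lower, from Cd52 at 2.85 ± 0.74 through Adgre1 at 1.84 ± 0.31, Cd74 at 1.54 ± 0.58, Trem2 at 1.18 ± 0.18 and Itgam at 0.823 ± 0.267 to Ptprc at 0.124 ± 0.041. The ranges of neighbours in this order overlapped except between Csf1r and Cd52 and between Itgam and Ptprc. Adgre1 and Cd74 were the least settled pair, with Cd74 above Adgre1 in 4 of 10 libraries. The 12 homeostatic microglia genes of a marker list, which include P2ry12 and Tmem119, were all above the count minimum, as were 11 of the 12 in WAT, so this does not set microglia apart.

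In WAT the order was another, with Cd74 at 463 ± 99.7 RPKM (SD over 12 libraries), then Cd52 at 66.8 ± 17.1, C1qa at 33.1 ± 8.52 and Cd53 at 24.2 ± 6.87. Csf1r at 7.80 ± 1.86, Ptprc at 6.64 ± 1.92, Adgre1 at 2.88 ± 1.10 and Itgam at 2.23 ± 0.76 followed. Cx3cr1, first in striatum, was ninth in WAT at 0.705 ± 0.188, and Trem2 was last at 0.151 ± 0.057. Only the ranges below Cd74, below Cd53, below Itgam and below Cx3cr1 were free of overlap with the next gene. Csf1r and Ptprc could not be ordered, since Ptprc was higher in 4 of 12 libraries. The tables were normalised separately, so these levels give the order within a tissue and no test between tissues. All 11 resident macrophage genes of a marker list, Mrc1, Cd163 and Lyve1 among them, were above the count minimum in WAT, as were all 10 B and T cell genes. In striatum 8 of those 10 B and T cell genes were below that minimum, with only Cd4 and Ighm above it.

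**Figure D1:**
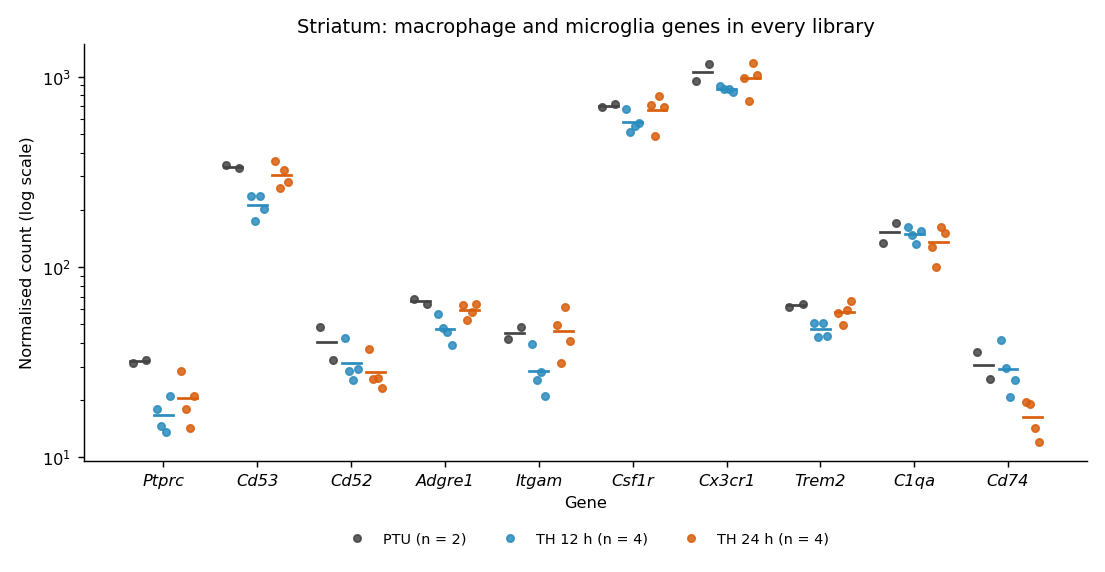
Normalised counts (log scale, y axis) of the 10 genes (x axis) in each striatum library, coloured by group (PTU, n = 2; TH 12 h and TH 24 h, n = 4), with bars at the group means. All 4 points of Cd53 at 12 h, between 174 and 236, sit below both PTU points, at 330.4 and 344.

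In striatum, TH at 12 h left none of the 10 genes past the threshold, against 0.96% of the 15827 genes tested (152 genes, adjusted p under 0.05). The 10 log2 changes were all below 0, where 49% of tested genes were, and their median was -0.39 against 0.01 over all genes. Without adjustment, 5 genes had p under 0.05, all lower (Ptprc, Adgre1, Cd53, Trem2 and Itgam), against 20.2% of all genes and 8.79% in the lower direction. In 7 genes every 12 h library lay below both PTU libraries, against 17.5% of all genes, and in none were they all above, against 18.9%. The count of 10 became 8 without 12 h replicate 3, became 9 without either PTU library or with a term for Y-linked counts, and stayed 10 without striatum 24 h replicate 2. The count of all genes called was itself unsteady, at 0 without PTU replicate 3 and 1257 without striatum 24 h replicate 2.

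Cd53 came nearest to the threshold. Its normalised counts were 344 and 330.4 in PTU replicates 3 and 6, and 236, 174, 236 and 201 in 12 h replicates 1 to 4. The groups did not overlap, and the fold change was 0.629 (log2 -0.67 ± 0.15, SE, 95% interval -1.01 to -0.33, adjusted p = 0.0657, edgeR). DESeq2 called Cd53 lower with the same log2 change (-0.67 ± 0.18, adjusted p = 0.0114) and was alone among the 10 genes there, where DESeq2 called 5.02% of genes. It was called by edgeR as well without a low-count filter (adjusted p = 0.0453), with the PTU and 12 h libraries alone (adjusted p = 0.0189) and without striatum 24 h replicate 2 (adjusted p = 0.0194). Each of these fits also called more genes over all than the 152 of the main fit, with 1257 without striatum 24 h replicate 2.

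Ptprc, at the low end of detection in striatum, gave 31.4 and 32.6 in PTU replicates and 17.9, 14.7, 13.6 and 20.9 at 12 h. All 12 h values were lower, with a log2 change of -0.93 ± 0.29 (95% interval -1.56 to -0.30, adjusted p = 0.115, edgeR). Itgam was at 41.9 and 48.5 in the PTU libraries and at 39.6, 25.4, 28.1 and 20.9 at 12 h, again without overlap, for a log2 change of -0.66 ± 0.30 (adjusted p = 0.24, edgeR). Its 12 h replicate 1 lay close to the PTU libraries and the other 3 well below. That library was also 1 of the 6 without Y-linked counts and had the highest projection neuron score of the 12 h group.

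Adgre1 also had groups that did not overlap. Its counts were 68.1 and 64.3 in PTU and 56.6, 48.0, 45.3 and 39.1 at 12 h (log2 -0.49 ± 0.17, adjusted p = 0.158, edgeR). Trem2 was at 61.8 and 64.3 in PTU and at 51.0, 43.1, 50.8 and 43.7 at 12 h (log2 -0.42 ± 0.16, adjusted p = 0.192, edgeR). Csf1r and Cx3cr1, the most abundant receptors, showed smaller differences of -0.29 ± 0.17 and -0.30 ± 0.15 on the log2 scale, with 95% intervals of -0.66 to 0.08 and -0.63 to 0.04. C1qa was nearly level at -0.03 ± 0.19, with an interval of -0.44 to 0.39 that leaves room for changes either way. Cd52 at -0.36 ± 0.28 and Cd74 at -0.07 ± 0.31 had overlapping groups.

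At 24 h in striatum again none of the 10 genes was called, against 0.348% of all genes (55 of 15827), and DESeq2 called none of them, against 1.28%. The log2 changes were below 0 for 9 genes, against 46.9% of all genes, with a median of -0.14 against 0.02. Unadjusted p was under 0.05 for Ptprc and Cd74, both lower, against 9.63% of all genes, of which 3.6% were lower and 6.03% higher. Groups did not overlap for Ptprc, Adgre1 and Cd74, all lower, against 8.47% of all genes lower and 9.7% higher. The 9 genes below 0 became 8 without striatum 24 h replicate 2, 7 without PTU replicate 6 and 10 without PTU replicate 3, without 24 h replicate 1 or without 24 h replicate 3.

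Cd74 had the largest difference at 24 h. Its counts were 35.6 and 25.7 in PTU, 41.5, 29.4, 20.8 and 25.5 at 12 h, and 19.6, 19.1, 14.3 and 12.0 at 24 h. Every 24 h library was thus below every library of the other striatum groups, with a log2 change from PTU of -0.91 ± 0.32 (95% interval -1.62 to -0.20, adjusted p = 0.393, edgeR) and from 12 h of -0.84 ± 0.27 (adjusted p = 0.195, edgeR). No 24 h library carried Y-linked counts, whereas 1 of 2 PTU and 3 of 4 12 h libraries did. With a term for Y-linked counts, the log2 change from PTU was -1.06 (adjusted p = 0.427, edgeR). Ptprc at 24 h was at 28.3, 17.9, 14.3 and 21.1, below the PTU values of 31.4 and 32.6 (log2 -0.64 ± 0.29, adjusted p = 0.512, edgeR).

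From 12 h to 24 h in striatum, edgeR called no gene at all (0% of 15827, with 14.6% at an unadjusted p under 0.05), and 3 of the 10 genes had a log2 difference below 0, against 48.4% of all genes. Unadjusted p was under 0.05 for Cd53, Itgam, Adgre1 and Trem2, higher at 24 h (7.7% of all genes), and for Cd74, lower (6.89%). Groups did not overlap for Cd53, higher (4.43% of all genes), and Cd74, lower (3.87%). Cd53 was at 360, 259, 325 and 281 at 24 h, all above the 12 h values, with a log2 difference of 0.53 ± 0.13 (adjusted p = 0.146, edgeR). DESeq2 called it (adjusted p = 0.0355) and no other of the 10 genes, where it called 1.52% of genes. Cd53 was thus lowest at 12 h, while its 24 h range of 259 to 360 took in both PTU values.

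**Figure D2:**
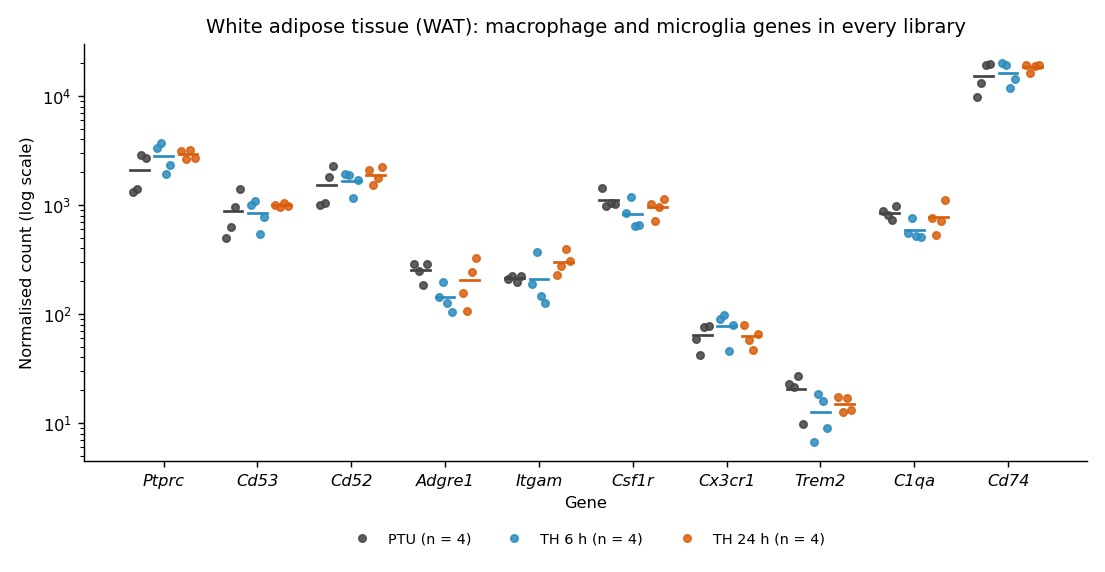
Normalised counts (log scale, y axis) of the 10 genes (x axis) in each WAT library, coloured by group (n = 4 each), with bars at the group means. Ptprc, Cd53, Cd52 and Cd74 span wide ranges within the PTU group, from 1315 to 2900 for Ptprc, and the 24 h points of Itgam, 229.6 to 392, lie above the PTU points, 196 to 224.

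In WAT at 6 h none of the 10 genes was called by edgeR or DESeq2, against 7.23% of 17928 genes called by edgeR (1296 genes). The log2 changes were below 0 for 6 genes, against 53.8% of all genes, and the median was -0.03, as over all genes. Adgre1 and C1qa had unadjusted p under 0.05, both lower, against 13.5% of all genes lower. No gene of the 10 had groups free of overlap, against 6.07% of all genes lower and 7.85% higher.

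Adgre1 was at 285, 249, 183 and 290.2 in PTU replicates 1 to 4 and at 143, 195, 126 and 105 at 6 h. Only 6 h replicate 2 reached into the PTU range, and the log2 change was -0.82 ± 0.31 (95% interval -1.48 to -0.16, adjusted p = 0.124, edgeR). C1qa was at 882, 813, 735 and 983 in PTU and at 556, 765, 523 and 514 at 6 h, where replicate 2 was again the one inside the PTU range (log2 -0.53 ± 0.20, 95% interval -0.97 to -0.10, adjusted p = 0.126, edgeR). Csf1r followed the same libraries, at 1427, 971, 1035 and 1023 in PTU and 848, 1181, 637 and 653 at 6 h (log2 -0.42 ± 0.21, adjusted p = 0.217, edgeR). Trem2, with 6.71 to 27.1 normalised counts over PTU and 6 h, was too low to place, its interval running from -1.47 to 0.08.

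Ptprc, Cd52, Cd74 and Cx3cr1 had log2 changes above 0 at 6 h, from 0.09 for Cd74 to 0.44 ± 0.27 for Ptprc, and Cd53 and Itgam were at -0.04 ± 0.28 and -0.02 ± 0.29. Ptprc illustrates the spread, with 1315, 1415, 2900 and 2720 in PTU and 3361, 3735, 1914 and 2318 at 6 h. PTU replicates 1 and 2 were low for Ptprc, Cd53, Cd52 and Cd74 alike, and these were the libraries with the lowest levels of B and T cell genes.

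At 24 h in WAT none of the 10 genes was called by edgeR or DESeq2, and none had an unadjusted p under 0.05, against 17.1% of all genes called (3060 of 17928) and 32% at the unadjusted level. The changes split evenly, 5 below 0 (50.3% of all genes) and 5 above, with a median of 0.08 against 0.00 over all genes. With the level of B and T cell genes as a covariate, 9 of 10 were below 0 at 24 h (median -0.28) and 9 of 10 at 6 h (median -0.31). None of the 10 B and T cell genes was itself below 0, with median log2 changes of 0.33 at 6 h and 0.54 at 24 h. The covariate thus differed between the groups. Without it, leaving out 1 library gave 3 to 6 of the 10 macrophage and microglia genes below 0 at 24 h and 4 to 8 at 6 h. The extremes were 3 without WAT 24 h replicate 2 and 8 without PTU replicate 1. Itgam was the one gene whose groups did not overlap, against 8.99% of genes higher and 10.3% lower without overlap. Its counts were 211, 224, 196 and 221 in PTU, 189, 374, 146 and 127 at 6 h and 229.6, 275, 392 and 308 at 24 h. The log2 change from PTU was 0.50 ± 0.29 (95% interval -0.12 to 1.12, adjusted p = 0.252, edgeR), and 0.53 ± 0.26 (adjusted p = 0.172, edgeR) for the second Itgam row, which was called when WAT 6 h replicate 2 was left out of the fit (adjusted p = 0.0445, edgeR). For the other 9 genes the changes ran from -0.45 ± 0.35 for Trem2 to 0.48 ± 0.27 for Ptprc, and every 95% interval held 0.

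From 6 h to 24 h in WAT, 9 of the 10 genes had log2 differences above 0 (Cx3cr1 was the exception at -0.33 ± 0.26), with a median of 0.21 against 0.01 over all genes. None was called by either tool, against 7.41% of genes called by edgeR, and none had an unadjusted p under 0.05, against 24.1% (12.6% lower). Here WAT 6 h replicate 2 decided a call, since without it Itgam was called higher at 24 h (log2 0.97, adjusted p = 0.0171, edgeR). That fit called 661 genes over all. WAT 6 h replicate 2 had the highest normalised count at 6 h of all the 10 genes except Cd52 and Cd74.

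**Figure D3:**
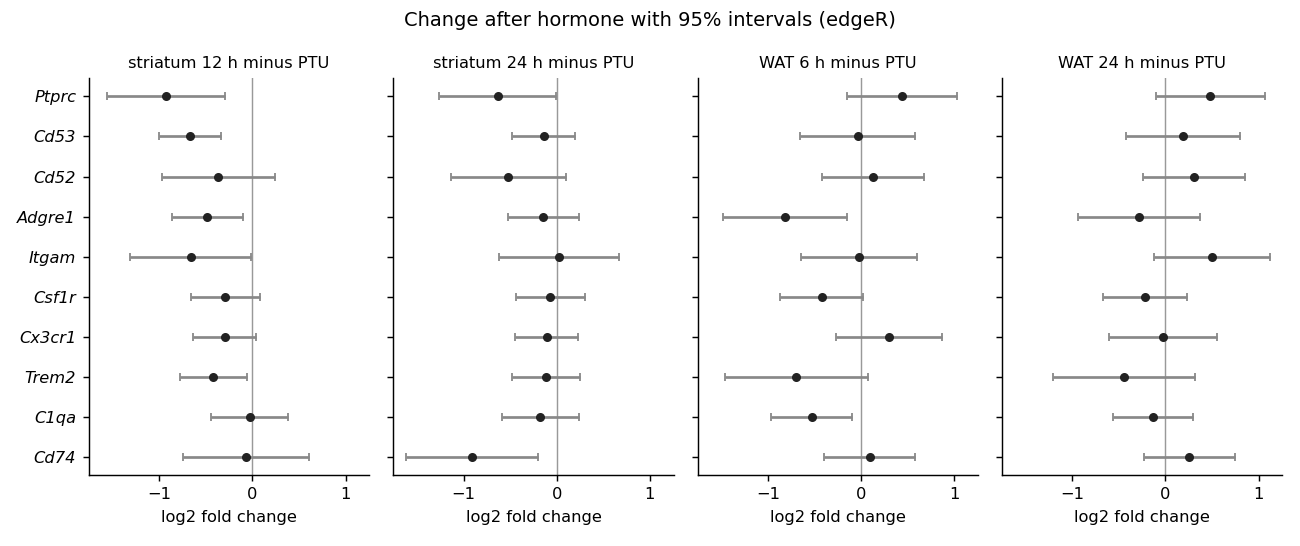
Log2 fold changes (x axis) from PTU of the 10 genes (rows), with 95% intervals from the edgeR fit, in 4 panels, 1 for each tissue and time after TH. In the striatum 12 h panel all 10 points are left of 0 and in the WAT 24 h panel they divide 5 and 5.

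Set side by side at 24 h, Ptprc was at -0.64 in striatum and 0.48 in WAT, Cd74 at -0.91 and 0.25, and Cd52 at -0.52 and 0.31 on the log2 scale. With the B and T cell covariate the WAT values were -0.04, -0.16 and -0.17, so the opposite directions depend on that choice. The difference between the tissues in the change at 24 h could be tested for 9 genes, Itgam being left out because of its repeated WAT row. None was called, against 5.14% of 12766 genes (656 genes). An unadjusted p under 0.05 (20.6% of genes) was found for Cd74, with a WAT minus striatum difference of 1.17 ± 0.44 (adjusted p = 0.133, edgeR). The other was Ptprc, with 1.12 ± 0.50 (adjusted p = 0.208, edgeR). Y-linked Ddx3y was at 988 to 2047 raw counts in the WAT libraries. In the striatum libraries of this contrast Ddx3y was at 242 in PTU replicate 3 and at 1 or less in the others. The striatum part of the difference thus also compares libraries with and without Y-linked counts, and no term for them was fitted here. For Adgre1, Csf1r, C1qa and Cx3cr1 the difference was between -0.14 and 0.09, with 95% intervals as wide as -1.01 to 0.74 for Adgre1. For these 4 genes the intervals left room for the same and for different changes in the tissues.

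Of the ligands, Csf1 rose in WAT at 24 h. It was at 623, 510, 562 and 423 in PTU and at 752, 938, 616 and 793 at 24 h, 3 of these 4 libraries being above all PTU values (log2 0.55 ± 0.17, adjusted p = 0.0457, edgeR), and the call held in 4 of 12 fits that left out 1 library (largest adjusted p = 0.127 without WAT 24 h replicate 2). At 6 h the change of Csf1 was 0.02 ± 0.17. Il34, the other ligand of Csf1r, was at 219 and 148 in striatum PTU and at 255, 243, 283 and 227 at 12 h (log2 0.46 ± 0.24, adjusted p = 0.313, edgeR), and at -0.13 ± 0.13 in WAT at 24 h. Cx3cl1 was higher in count in striatum than the 10 genes, with 7203 to 9853 normalised counts, and its changes there were 0.10 ± 0.13 at 12 h and 0.12 ± 0.13 at 24 h. Mif, a cytokine that signals through Cd74, rose in WAT at 24 h by 0.40 ± 0.10 (adjusted p = 0.015, edgeR), from 883 to 1012 in PTU to 1212 to 1349, and the call held in 12 of 12 such fits. In striatum at 12 h Mif was at 393 to 417 against 272 and 305 in PTU (log2 0.49 ± 0.12, adjusted p = 0.0697, edgeR).

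Of the partners, C1qb and C1qc are set beside C1qa. In WAT at 6 h they were at -0.36 ± 0.18 and -0.42 ± 0.20 on the log2 scale beside -0.53 ± 0.20 for C1qa, and in striatum at 12 h at -0.12 ± 0.13 and -0.06 ± 0.13 beside -0.03 ± 0.19. Tyrobp, the adaptor of Trem2, was at -0.25 ± 0.17 in striatum at 12 h and 0.21 ± 0.17 in WAT at 24 h. Itgb2, the partner of Itgam, had a striatal change of -0.05 ± 0.36 at 12 h. In fat at 24 h it was at 842, 827, 938 and 733 against 447, 412, 672 and 635 in PTU, without overlap (log2 0.62 ± 0.21, adjusted p = 0.0627, edgeR).

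Other myeloid genes were read from lists of known markers. In striatum at 12 h, 18 of 20 tested pan-myeloid genes had a log2 change below 0, with a median of -0.50, and 9 of 12 homeostatic microglia genes, with a median of -0.16. The 6 tested resident macrophage genes were mixed (4 below 0, median -0.05). The 3 tested lipid-associated macrophage genes, Gpnmb, Spp1 and Cd9, were all above 0, none at an unadjusted p under 0.05. Their median was 1.66 and ran from 0.30 to 2.01 when 1 library was left out. Gpnmb and Spp1 were at 51.0 and 246 normalised counts in 12 h replicate 4. The other 12 h libraries had 2.83 to 18.6 and 10.9 to 60.7. No gene of these lists was called by edgeR (0.96% of all genes called), and 10 pan-myeloid and 4 homeostatic genes had an unadjusted p under 0.05, all lower, against 8.79% of all genes lower. Without striatum 24 h replicate 2, 4 pan-myeloid and 2 homeostatic genes were called, in a fit that called 1257 genes over all against 152 in the main fit. At 24 h these counts below 0 were 17 of 20 (median -0.22) and 5 of 12 (median 0.06), with 1 and 0 genes at an unadjusted p under 0.05 and none called. The 3 lipid-associated macrophage genes were again above 0 (median 0.67, 1 at an unadjusted p under 0.05).

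In WAT at 6 h, 2 of 22 pan-myeloid and 1 of 11 resident macrophage genes fell, a share near the 7.23% of all genes called. The chemokine Pf4 fell by 1.07 ± 0.21 on the log2 scale (adjusted p = 0.00932), from 570, 503, 314 and 510.3 in PTU to 193, 278, 231 and 199, and was called in 12 of 12 fits that left out 1 library. The Fc receptor Fcgr3 fell by 0.77 ± 0.18 (adjusted p = 0.0229, called in 8 of 12) and Csf2ra, a receptor chain for GM-CSF, by 0.36 ± 0.09 (adjusted p = 0.0393, called in 2 of 12, all by edgeR). Of 11 resident macrophage genes 9 were below 0 at 6 h, with a median of -0.75, of which Pf4 was called. Unadjusted p was under 0.05 for 7 lower genes and 1 higher gene of this list, against 13.5% of all genes lower and 11.9% higher. Fits that left out 1 library called 1 to 5 genes of this list, the most without WAT 6 h replicate 2, and 684 to 1898 genes over all. Among the pan-myeloid genes the median was -0.02, with 12 below 0, and 8 MHC class II genes had a median of 0.10 with none called or at an unadjusted p under 0.05, as Cd74, their invariant chain, also was not.

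At 24 h in WAT the calls went both ways. Of 11 resident macrophage genes 8 were below 0 (median -0.36), with 2 called higher and 1 lower, against 17.1% of all genes called. Fits that left out 1 library called 1 to 4 genes of this list, the most without WAT 24 h replicate 4, and 1957 to 4264 genes over all. Timd4, a phosphatidylserine receptor of resident macrophages, rose by 0.84 ± 0.23 (adjusted p = 0.0266), and Cbr2, a carbonyl reductase found in some resident macrophages, by 1.64 ± 0.39 (adjusted p = 0.0128, both edgeR), while Pf4 fell by 0.78 ± 0.21 (adjusted p = 0.0214, edgeR). Leaving out 1 library kept the calls of Timd4 and Pf4 in 9 of 12 fits each and that of Cbr2 in 12. P2ry13 and Selplg, listed as microglial genes but also expressed by other leukocytes, rose by 0.93 ± 0.28 and 0.73 ± 0.17 (adjusted p = 0.0367 and 0.0128, edgeR, held in 4 and 12 of 12 fits). Of the list they belong to, 8 of 11 genes were below 0, against 50.3% of all genes, with a median of -0.22. Unadjusted p was under 0.05 for 2 lower genes of the list, near the 17.7% of all genes lower at that level. Itgax, a dendritic cell and lipid-associated macrophage integrin, rose by 0.67 ± 0.21 (adjusted p = 0.0473, edgeR, held in 3 of 12). Of the chemokines, Cxcl10 rose by 1.21 ± 0.37 and Cxcl1 by 4.18 ± 1.24 (adjusted p = 0.042 and 0.0361, edgeR), held in 3 and 6 of 12 fits. The Cxcl1 value rested on WAT 24 h replicate 2, at 602 normalised counts against 5.53 to 53.1 in the other 24 h libraries, and lost the call without it (adjusted p = 0.259). None of 7 tested inflammatory cytokine and receptor genes was called.

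Markers of other cells differed in WAT as well. All 5 erythrocyte genes were below 0 at 6 h (median -0.76) and at 24 h (median -0.87), as were all 5 endothelial genes (medians -0.35 and -0.37). None of these was called, against 7.23% of all genes at 6 h and 17.1% at 24 h. Unadjusted p was under 0.05 for 3 erythrocyte genes each time and for 1 and 2 endothelial genes, all lower. Of all genes, 13.5% were lower at that level at 6 h and 17.7% at 24 h. Summed levels of 10 B and T cell genes ran from 6025 to 14544 in PTU, from 9222 to 16145 at 6 h and from 12736 to 20522 at 24 h, none of them being at 0 in any group. Of these B and T cell genes 1 was called at 24 h, against 17.1% of all genes. It was Ighm, the immunoglobulin heavy chain of B cells, which rose by 0.90 ± 0.28 (adjusted p = 0.0438, edgeR, held in 3 of 12 fits that left out 1 library). Also at 24 h, the mast cell genes Tpsb2, Mcpt4 and Cpa3 fell by 1.25 ± 0.25, 1.22 ± 0.26 and 1.02 ± 0.32 (adjusted p = 0.00537, 0.00775 and 0.0451, edgeR, held in 12, 12 and 3 of 12). The neutrophil receptor gene Csf3r rose by 1.11 ± 0.34 (adjusted p = 0.041, edgeR, held in 4 of 12), and the adipocyte genes Cidec, Adipoq and Plin1 fell by 1.87 ± 0.34, 1.17 ± 0.12 and 0.89 ± 0.14 (adjusted p = 0.00308, 8.4e-05 and 0.00103, edgeR). Penk, which encodes an opioid peptide precursor, fell by 1.60 ± 0.24 at 6 h and 1.78 ± 0.24 at 24 h (adjusted p = 0.00188 and 0.000493, edgeR), the dopamine receptor gene Drd1 rose by 1.68 ± 0.48 at 24 h and the keratin gene Krt5 fell by 5.76 ± 1.75 (adjusted p = 0.0297 and 0.0393, edgeR, held in 8 and 5 of 12). The part of these other cells in the values of the 10 genes was not tested beyond the B and T cell covariate. Summed levels of 5 skeletal muscle genes ran from 781 to 425396 over the WAT libraries and those of 4 stratified epithelium genes from 1.93 to 2814.

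**Figure D4:**
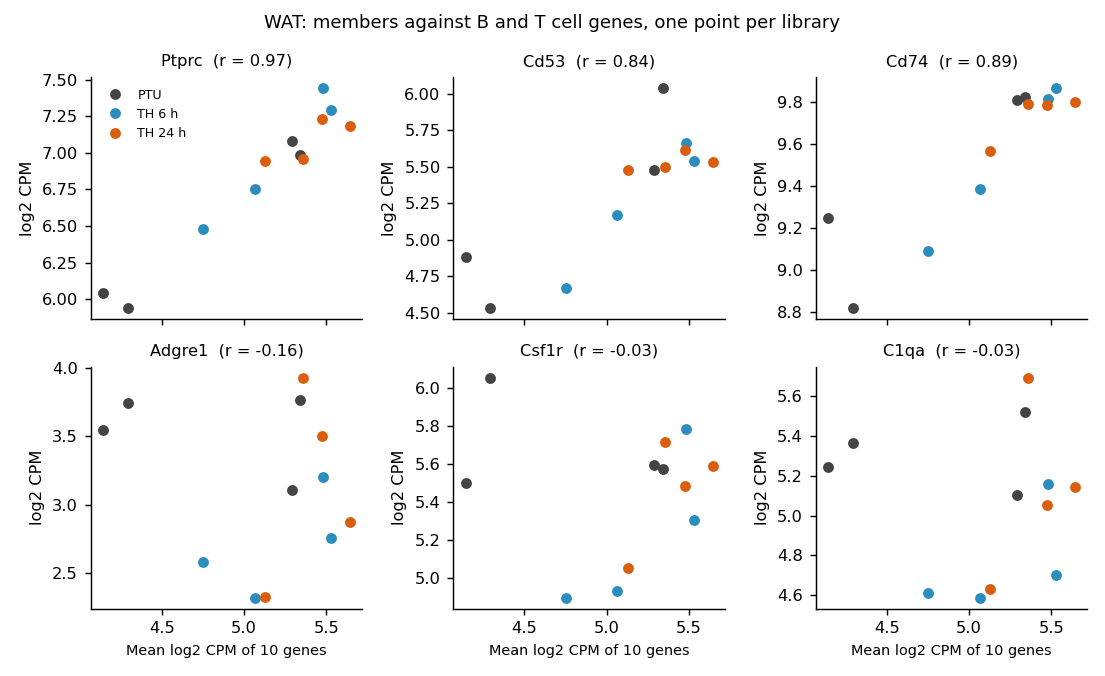
Log2 CPM (counts scaled to library size) of 6 of the 10 genes (y axes) against the mean log2 CPM of 10 B and T cell genes (x axis) in the 12 WAT libraries, coloured by group. Ptprc, Cd53 and Cd74 rise with the B and T cell genes (r = 0.97, 0.84 and 0.89), and for Adgre1, Csf1r and C1qa r is between -0.16 and -0.03 over all 12 libraries.

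In WAT the 10 genes divided by how they followed the B and T cell score, the mean log2 CPM of those 10 genes. Over 12 libraries Pearson's r was 0.97 for Ptprc (Spearman's rho 0.92), 0.92 for Cd52 (rho 0.79), 0.89 for Cd74 (rho 0.80) and 0.84 for Cd53 (rho 0.80), with permutation p of 3e-05, 0.00011, 0.00055 and 0.00148 for r and of 8e-05, 0.0032, 0.0029 and 0.00242 for rho. Adjusted over the 42 values computed in both tissues, p was at most 0.00691 for these r and at most 0.0103 for these rho. Without PTU replicates 1 and 2, the libraries farthest from the median score, r was still 0.90, 0.81, 0.92 and 0.75, and within groups it was 0.96, 0.93, 0.91 and 0.89. Cx3cr1 was weaker (r = 0.65, rho = 0.70, permutation p = 0.0226 and 0.014, adjusted 0.0589 and 0.0421), and r was 0.53 without those libraries.

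For the other 5 genes no such relation was seen over 12 libraries, with r of -0.03 for Csf1r and C1qa, -0.16 for Adgre1 and -0.39 for Trem2 (permutation p between 0.208 and 0.931), and 0.34 for Itgam (permutation p = 0.284). The rho values of these 5 genes lay between -0.25 and 0.41 (permutation p between 0.192 and 1.0). These values depended on PTU replicates 1 and 2, since without them r was 0.77 for Csf1r, 0.45 for Adgre1, 0.49 for C1qa, 0.57 for Itgam and 0.02 for Trem2. With the B and T cell score as a covariate, the log2 changes at 24 h of Ptprc, Cd53, Cd52 and Cd74 turned from 0.48, 0.18, 0.31 and 0.25 to -0.04, -0.31, -0.17 and -0.16, and none of the 10 genes was called. The B and T cell genes had a median log2 change of 0.54 at 24 h themselves, and the source of their transcripts was not tested.

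**Figure D5:**
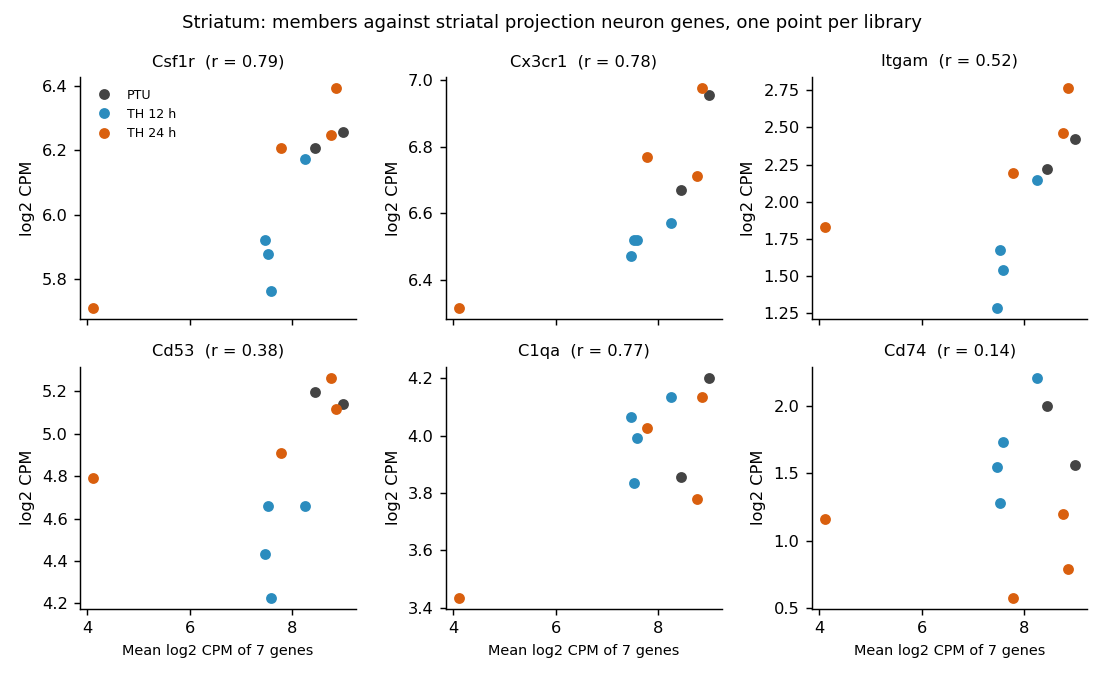
Log2 CPM of 6 of the 10 genes (y axes) against the mean log2 CPM of 7 striatal projection neuron genes (x axis) in the 10 striatum libraries, coloured by group. Csf1r and Cx3cr1 rise with the neuron genes (r = 0.79 and 0.78), Cd74 shows no such relation (r = 0.14), and 24 h replicate 2 stands alone at a score of 4.11.

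In striatum the summed level of the 10 B and T cell genes was 226 to 913, nearly all of them below the count minimum, and the microglial genes were set instead against 7 projection neuron genes, among them Drd1, Drd2 and Penk. Why this score varied between libraries was not tested. Over 10 libraries Csf1r and Cx3cr1 followed this score, with r = 0.79 and 0.78 (permutation p = 0.00012 and 0.00072, adjusted 0.00126 and 0.00504) and rho = 0.90 for both (permutation p = 0.00097 and 0.0009, adjusted 0.00509). Without PTU replicate 6 and 24 h replicate 2, r was 0.86 and 0.75, and within groups 0.91 and 0.89. Itgam had rho = 0.87 (permutation p = 0.00215, adjusted 0.00903) and r = 0.52 (permutation p = 0.122), which became 0.91 without those libraries. For C1qa, r = 0.77 (permutation p = 0.0297, adjusted 0.0665, rho = 0.50, permutation p = 0.144) became -0.06 without those libraries, and was 0.78 within groups with them kept. Adgre1 and Cd53 had rho = 0.75 and 0.72 (adjusted permutation p = 0.0473 and 0.0589). Their r of 0.39 and 0.38 became 0.73 and 0.83 without those libraries. For Trem2, Cd52 and Ptprc rho was 0.70, 0.45 and 0.41 (adjusted permutation p = 0.0665, 0.325 and 0.369). Cd74 had r = 0.14 and rho = 0.09 (permutation p = 0.69 and 0.809).

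The score was 7.47 to 8.25 at 12 h against 8.45 and 8.99 in PTU, so these groups did not overlap, and 7.77 to 8.85 at 24 h apart from replicate 2. With it as a covariate, an alternative added after the data were seen, 9 of 10 genes were below 0 at 12 h (median -0.33) and Cd53 was called lower (log2 -0.59, adjusted p = 0.0234, edgeR). The changes of Csf1r and Cx3cr1 then were -0.15 and -0.18. In the same fit Cd53 was called higher at 24 h than at 12 h (log2 0.55, adjusted p = 0.0195, edgeR). Both comparisons called more genes over all in this fit than in the main fit. For 24 h against PTU, 7 of 10 genes were below 0 with this covariate (median -0.03), against 9 without it (median -0.14).

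The 10 genes also varied with each other differently in the tissues. In striatum, 11 of 45 pairs had a positive r with adjusted p under 0.05 (permutation, adjusted over 180 values), and none a negative one. Csf1r with Cx3cr1 (r = 0.88, rho = 0.95, adjusted p = 0.0126 and 0.00252), Adgre1 with Trem2 (r = 0.88, rho = 0.88, adjusted p = 0.0127 and 0.014) and Cd53 with Itgam (r = 0.86, rho = 0.89, adjusted p = 0.014 and 0.0133) were among them. Without the 2 libraries farthest from the median of the gene named before the other, r was 0.85, 0.93 and 0.76, and within groups 0.84, 0.62 and 0.69. In WAT, 9 of 45 pairs passed, in 2 sets. Adgre1, Csf1r and C1qa went together, with r = 0.94 for Adgre1 with C1qa (rho = 0.94, adjusted p = 0.0018 for both), 0.83 for Csf1r with C1qa and 0.81 for Adgre1 with Csf1r (adjusted p = 0.0126 and 0.014, rho = 0.81 and 0.71, adjusted p = 0.0145 and 0.054). Ptprc, Cd53, Cd52 and Cd74 made the other set, with r from 0.85 to 0.94 (rho from 0.69 to 0.85). Within groups r was 0.90 for Adgre1 with C1qa and between 0.87 and 0.95 in the other set. All these points share a library's size factor and tissue piece.

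Cd53 and Itgam, 1 of the pairs that moved together in striatum, carry in their promoters the core of the binding sequence of PU.1, the factor that specifies macrophages and microglia, so both promoters are shown. The sequences are from RefSeq (GRCm38.p6), 250 bases before to 50 after the start, in the gene's direction, at chr3:106790100-106790399 (minus strand) and chr7:128062390-128062689 (plus strand). Capitals mark GAGGAAG on either strand, which reads CTTCCTC where it lies on the opposite strand.
Cd53: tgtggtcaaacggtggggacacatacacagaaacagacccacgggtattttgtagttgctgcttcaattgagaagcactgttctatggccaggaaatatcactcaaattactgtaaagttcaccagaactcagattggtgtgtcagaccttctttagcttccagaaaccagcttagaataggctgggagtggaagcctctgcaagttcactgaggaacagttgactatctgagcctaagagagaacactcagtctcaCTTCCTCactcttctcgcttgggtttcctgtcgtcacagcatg
Itgam: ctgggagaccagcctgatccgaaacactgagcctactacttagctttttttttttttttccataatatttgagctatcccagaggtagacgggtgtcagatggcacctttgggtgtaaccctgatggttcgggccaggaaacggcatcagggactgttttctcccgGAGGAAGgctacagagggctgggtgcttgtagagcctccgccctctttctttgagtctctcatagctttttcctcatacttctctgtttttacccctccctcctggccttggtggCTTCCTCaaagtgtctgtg

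The match in Cd53 lies at bases 8 to 14 after the start and those in Itgam at bases -84 to -78 and 32 to 38. Promoters of 5 of the 10 genes could be read (Ptprc, Cd53, Itgam, Cx3cr1 and Trem2), and 3 of them held the core (Cd53, Itgam and Trem2), against 13.6% of all 32851 promoters of that length. AGGTCA, the core that thyroid hormone receptors bind, was in 1 of the 5 (Trem2, at bases -68 to -63, opposite strand) against 16.3% of all promoters. The DR4 arrangement of AGGTCA repeated on the same strand after 4 bases was in none of the 5 and in 0.0152% of all. A match is a description of letters only.

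Genes whose log2 CPM was most like the mean standardised level of the 10 genes were Ppp1r2 (r = 0.97), Unc13c, Npl, Pdpk1 and Rac2 (all r = 0.96) over the 10 striatum libraries, of 15817 compared. Rac2 is a leukocyte GTPase and Unc13c a neuronal synaptic vesicle gene. Over the 12 WAT libraries they were Cd48, Add3, Ms4a6b and Lyz2 (all r = 0.88) and Cd84 (r = 0.87), of 17917 compared. Cd48 and Cd84 are leukocyte receptors and Lyz2 the lysozyme of myeloid cells. These were chosen as the highest of all genes, so their r is a description.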

How the data were processed

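Bulk RNA-seq libraries (Lexogen SENSE total RNA kit, NextSeq 500, per the labels) were counted per gene by the authors with Bowtie2 2.2.6.2 and htseq-count on GRCm38, and the deposited values are raw read counts, 1 table per tissue. Reads matching several genes and use of strand are not described in the sources used here. Here 14 striatum and 15 WAT rows whose gene names had turned into dates (at most 0.201% of counts) were dropped, and genes whose mean over libraries exceeded 10 normalised counts entered the test in edgeR 4.0.16 (R 4.3.3, TMM factors, quasi-likelihood test, all 3 groups of a tissue in 1 fit, Benjamini-Hochberg adjustment over all genes tested, threshold 0.05). The test of the difference between tissues used 1 fit of both tables on shared symbols. In WAT, 86 rows (6.09% of counts) held the same counts as other rows and 244 rows repeated a gene symbol. None of the 10 genes was among the copied rows. DESeq2 1.42.0, other scalings, filters, covariates and leaving out each library were alternatives. Normalised counts are counts scaled to the mean effective library of the tissue. Permutation tests used 100000 resamples, two-sided (Python, scipy). The scripts were tested on simulated data.

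Named besides the 10 genes were their ligands and partners, up to 4 called genes of each marker list in a comparison with PTU, and the 5 genes most like the mean of the 10. The 10 genes and the lists were chosen with earlier results of these data known. Libraries of a group are described as separate samples, and p-values measure the spread between them. Replicate numbers were not treated as pairs. The deviations of same-numbered libraries correlated between -0.40 and 0.27 in striatum (6 pairs) and between -0.47 and 0.39 in WAT (12 pairs), which cannot exclude a pairing.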

Additional observations from a re-analysis of the deposited data

Results flagged for a closer look

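Of 53 groups of 4 libraries examined over the 10 genes and the second Itgam row, 4 held a library that stood far from the other 3, and chance alone sets apart about 1 group in 20. Cd74 in WAT 24 h replicate 2 was low at 16299 normalised counts, against 18961 to 19149 in the other 24 h libraries. Csf1r in WAT PTU replicate 1 was high at 1427, against 971 to 1035. C1qa in WAT 6 h replicate 2 was high at 765, against 514 to 556, and in the same library the second Itgam row was high at 241, against 105 to 115.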

How the results depend on the processing

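Limits come first from the libraries. Striatum PTU had 2, so leaving either out leaves 1, assumed to vary like the other groups. The cause of the shifts given here was not tested.

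Of the 10 genes, 1 (Cd53, 0 otherwise) was called in striatum at 12 h with no low-count filter, with only the groups compared, with DESeq2 and with the projection neuron covariate, and 1 (Cd53) from 12 h to 24 h with DESeq2 and that covariate. Leaving out 1 library gave 0 to 1 called genes in striatum at 12 h (1 without striatum 24 h replicate 2), 0 to 1 in WAT from 6 h to 24 h (1, Itgam, without WAT 6 h replicate 2), and 0 in every other comparison. These counts leave out the second Itgam row, called at 24 h in WAT without WAT 6 h replicate 2. DESeq2 size factors changed no direction and no call of the 10 genes, nor did leaving out copied or repeated rows for the 9 it kept (Itgam was dropped), whose WAT 24 h median was -0.024.

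Over all genes, calls in striatum at 12 h, 24 h and from 12 h to 24 h (152, 55 and 0) became 308, 104 and 41 with no filter, 795, 203 and 240 with DESeq2, and 961, 265 and 738 with the projection neuron covariate. With only the groups compared they were 1442 at 12 h and 0 at 24 h, and with the Y-linked term 60 and 3. In WAT, 1296, 3060 and 1329 calls (6 h, 24 h, 6 h to 24 h) became 834, 2037 and 2444 with only the groups compared. DESeq2 gave 2106 at 6 h and 2165 from 6 h to 24 h, and the B and T cell covariate 841 at 6 h. The 656 calls between tissues became 424 with no filter and 242 with only the groups compared. Leaving out 1 library gave 0 to 1257, 0 to 115 and 0 to 78 in striatum (lowest without PTU replicate 3, highest without 24 h replicate 2), 684 to 1898, 1957 to 4264 and 661 to 2038 in WAT, and 216 to 1084 between tissues.

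Directions turned only where the change was not called. In striatum the Y-linked term gave 0.039 for C1qa at 12 h and -0.21 for Itgam at 24 h, and the projection neuron covariate 0.10 for C1qa at 12 h, 0.094 for Csf1r and 0.038 for Cx3cr1 at 24 h. In WAT, only the groups compared gave 0.012 for Itgam at 6 h. The B and T cell covariate gave -0.20, -0.21 and -0.018 for Cd52, Cd74 and Cx3cr1 at 6 h, -0.039, -0.31, -0.17 and -0.16 for Ptprc, Cd53, Cd52 and Cd74 at 24 h, and -0.10 for Ptprc from 6 h to 24 h.

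Leaving out 1 library turned further signs. In striatum at 12 h the range was -0.28 to 0.18 for Cd74 and -0.20 to 0.16 for C1qa. At 24 h it was -0.16 to 0.034 for Csf1r, -0.35 to 0.012 for C1qa, -0.26 to 0.043 for Cx3cr1 and -0.14 to 0.15 for Itgam, and from 12 h to 24 h -0.33 to 0.027 for Cd52. In WAT at 6 h it was -0.22 to 0.31 for Cd53, -0.022 to 0.40 for Cd52, -0.066 to 0.25 for Cd74, -0.47 to 0.18 for Itgam and -0.27 to 0.25 for its second row. At 24 h it was -0.017 to 0.52 for Cd53, -0.36 to 0.013 for C1qa and -0.18 to 0.093 for Cx3cr1, and from 6 h to 24 h -0.11 to 0.20 for Ptprc. Between tissues it was -0.43 to 0.089 for Adgre1, -0.25 to 0.0083 for Csf1r, -0.17 to 0.23 for C1qa and -0.072 to 0.24 for Cx3cr1.

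With the replicate number as a block, calls over all genes were 7 in striatum from 12 h to 24 h (0 without the block) and 778 in WAT from 6 h to 24 h (1329 without), Cd53 in WAT at 6 h was at 0.0090, and no call of the 10 genes changed. The numbers were not treated as pairs in the main fit. No block could be fitted for striatum against PTU, where groups share 1 number, or between tissues.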
